A study of Mus musculus with 147 samples.

Results

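Germ cells of *Helq* null mice were compared with wild-type germ cells of the same gonadal stages, E11.5 and E12.5. The cells were taken by the deposited cell names: time-point E11.5 or E12.5, sorting gate BVSC, genotype WT or KOHelq. A cell was kept with more than 2000 genes and 10000 to 1000000 unique molecular identifiers (UMIs, tags that mark single transcripts). This left 430 of 440 cells, out of 12692 kept cells in the series, and they were 289 wild-type cells and, at E11.5 and E12.5, 71 and 70 *Helq* null cells. UMIs were summed per time-point, genotype and replicate into 6 pools, which are the units of every test below.

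HELQ is a DNA helicase that acts at stalled replication forks and in the repair of crosslinked DNA, together with the ATR checkpoint kinase. Mice without it are known for few germ cells and small gonads. At E11.5 and E12.5, primordial germ cells (PGCs) have reached the gonad and still divide. Mitotic arrest of male PGCs follows at later stages, so the comparison asks which transcripts differ before that switch.

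The null allele was made with a single guide RNA, shown here because it marks where in the gene the lesion lies. The guide is printed in lower case and the PAM, the bases that Cas9 needs beside its target, in capitals.
Helq guide: ggagccgccgccggaaaaccGGG
A match of the guide to GENCODE transcripts placed it at chr5:100798315-100798334 (GRCm38/mm10), in exon 1 and inside the coding sequence, 140 bases after the start codon. *Helq* itself (ENSMUSG00000035266.16) spans chr5:100762145-100798598 on the minus strand. The null mice carried a small deletion in both alleles at this site.

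Wild-type embryos came from BVSC males mated with C57BL/6 females. BVSC mice carry *Blimp1*-mVenus and *Stella*-ECFP, a pair of fluorescent reporters that light up PGCs and served as the sorting gate. *Helq* null embryos descended from chimeras made with edited BVSC embryonic stem cells and crossed among themselves, so the lesion, the edited stem cells and the breeding scheme cannot be told apart. Each time-point held 2 wild-type pools and 1 *Helq* null pool, and each pool was 1 library, so genotype and library cannot be told apart either. By the study's sample table each wild-type pool came from several embryos, so the animals behind a pool cannot be separated. How many animals gave the *Helq* null pools is not given in the sources used here, and p-values measure the spread between pools. The pools held 66 to 79 cells and 17854870 to 25629589 UMIs, with a median of 8366 to 9272 genes per cell and 1.37 to 1.61% mitochondrial UMIs. The 72 cell barcodes were present in all 6 libraries, as plate barcodes are, and 0 cells were identical between libraries.

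Germ cell markers were high in every pool. *Dppa3*, the gene behind the *Stella* reporter, stood between 736 and 1069 UMIs per 1000000 UMIs of the pool (CPM), and *Dazl*, an RNA-binding protein of germ cells, between 239 and 722 CPM. Of the 430 cells, 2 did not pass a rule on germ cell markers. The E12.5 *Helq* null pool stood apart from the other 5: its correlations with them across genes were 0.89 to 0.93, against 0.92 to 0.95 among the others.

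The E11.5 *Helq* null library went against its male label in part. Transcripts of 4 Y-linked genes (*Eif2s3y*, *Ddx3y*, *Kdm5d* and *Uty*) summed to under 50 CPM in 39 of its 71 cells, 54.9%. The median of these 39 cells was 10.9 CPM, and that of the other 32 was 236 CPM. In the other 5 pools 0 to 2 cells were under 50 CPM. *Xist*, the RNA of the inactive X chromosome, had 86 UMIs in 12 of these 39 cells and 15 UMIs in the other 32 cells. The wild-type pools of E11.5 had 67 and 77 *Xist* UMIs in 19 and 8 cells. In cells outside the BVSC gate, 12 of 24 from this library were under 50 CPM, against 1 to 2 cells in each of 4 other libraries. Counts below were therefore repeated on cells with at least 50 CPM, a choice made after the data were seen, and are given where they were.

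**Figure D1:**
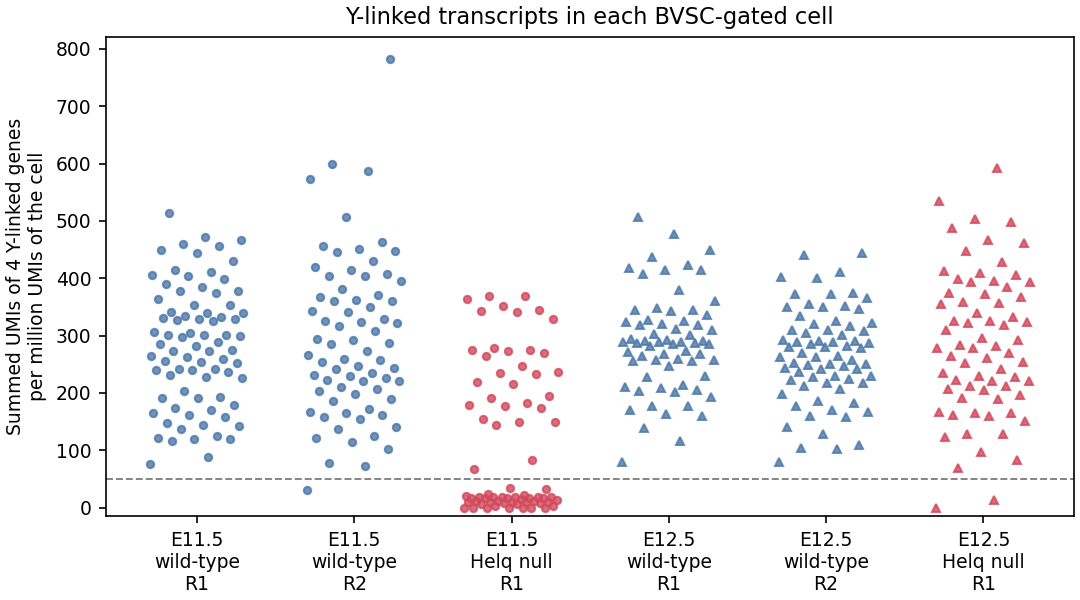
Summed UMIs of 4 Y-linked genes as CPM of each cell (y axis) for the BVSC-gated cells of each pool (x axis), with 1 point per cell spread sideways for display and a dashed line at 50. In the E11.5 *Helq* null pool 39 of 71 cells lie under the line, and in each of the other pools 0 to 2 cells do.

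*Helq* transcripts were detected at like levels in both genotypes. At E11.5 the wild-type pools held 26.8 and 24.6 CPM and the *Helq* null pool 26.8 CPM. At E12.5 the wild-type pools held 26.5 and 22.8 CPM and the *Helq* null pool 39.6 CPM. The E12.5 *Helq* null pool was thus the highest and the other 5 lay close together. The log2 fold change was 0.42 (SE 0.26), with an adjusted p of 0.64 (edgeR's quasi-likelihood test with Benjamini-Hochberg adjustment over all genes tested, used throughout). A *Helq* UMI was found in 66.7 to 77.5% of gated cells per pool, and in 16.7 to 45.8% of cells outside the gate, at median depths of 252177 to 371118 and 112208 to 182121 UMIs. The library reads the end of the transcript far from exon 1, so this level does not check the deletion.

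Few genes differed between the genotypes over both time-points. Of 15380 genes tested, 66 passed a false discovery rate (FDR) of 0.05, which is 0.429%, with 33 higher (0.215%) and 33 lower (0.215%) in *Helq* null cells. At an unadjusted p under 0.05 there were 1573 genes, and the median log2 fold change of all genes tested was -0.02. In 62 of the 66 the *Helq* null and wild-type pools did not overlap, against 16% of all genes tested (7.48% higher and 8.48% lower), and on cells with Y-linked transcripts again in 62, against 17.3%. The call was made on these same pools, and cells with Y-linked transcripts are part of them, so neither count is added support. At least a 2-fold change was found in 50, and 26 had a mean log2 CPM under 5. On cells with Y-linked transcripts the count was 78, and 58 of the 66 were among them. With 2 *Helq* null pools the fit recovered 34% of simulated 2-fold changes and 74.7% of simulated 4-fold changes among 14700 genes, so small differences were mostly below its reach. Without the E11.5 *Helq* null pool the count was 194, of which 153 were lower.

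**Figure D2:**
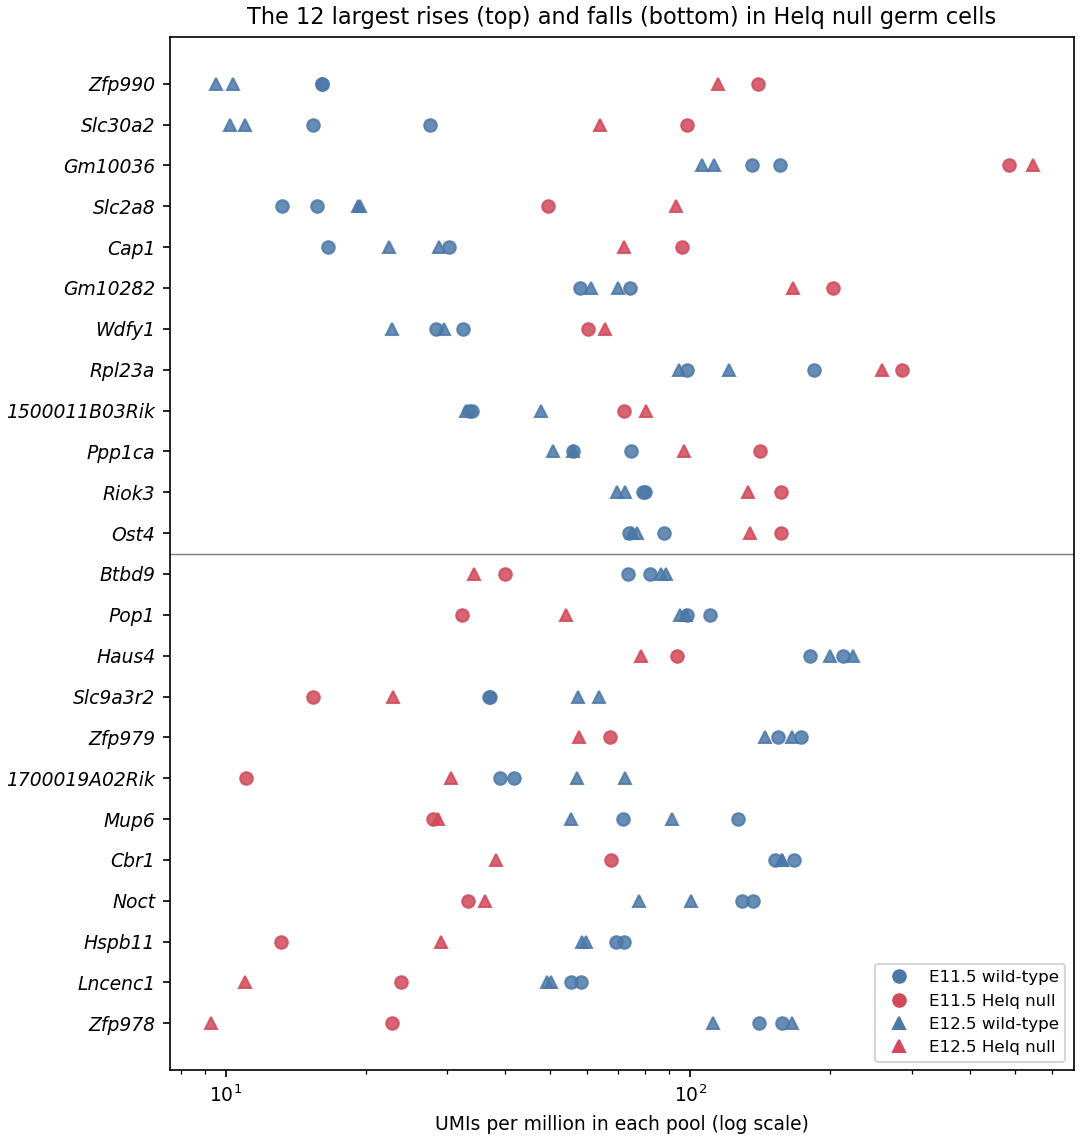
CPM (x axis, log scale) in each of the 6 pools for the 12 largest rises and 12 largest falls (y axis) past the FDR of 0.05, at a mean log2 CPM of 5 or more and with genotypes that do not overlap. Circles are E11.5 and triangles E12.5. By the choice of genes, both *Helq* null pools (red) lie on one side of the 4 wild-type pools (blue) in every row.

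Zinc-finger genes of distal chromosome 4 held the largest rise and the largest fall among genes of at least this level. Their proteins bind DNA through arrays of zinc fingers, and many of the family silence transposable elements. *Zfp990* (chr4:145510759-145539188) held 16.1 and 16.1 CPM in the wild-type pools and 140 CPM in the *Helq* null pool at E11.5. At E12.5 the wild-type pools held 10.4 and 9.52 CPM and the *Helq* null pool 114.8 CPM. Both *Helq* null pools were far above all 4 wild-type pools, where the choice of these genes already required no overlap. The log2 fold change was 3.37 (SE 0.21, adjusted p = 1.68e-06 by edgeR's quasi-likelihood test).

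*Zfp978* (chr4:147361303-147391004) ran the other way. The wild-type pools held 140, 157, 165 and 112.2 CPM, and the *Helq* null pools 22.7 CPM at E11.5 and 9.28 CPM at E12.5. Its log2 fold change was -3.21 (SE 0.31, adjusted p = 0.00027). *Zfp979* (chr4:147611937-147642513) fell as well, from 144.6 to 173 CPM in the wild-type pools to 67.3 and 57.5 CPM in the *Helq* null pools, a log2 fold change of -1.31 (SE 0.17). Members of this cluster are alike in sequence, so the division of reads among them is uncertain.

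Transporters and an actin regulator were among the other rises. *Slc30a2*, a zinc transporter, held 27.5 and 15.4 CPM in wild-type and 98.6 CPM in *Helq* null cells at E11.5, and 10.2, 11 and 63.8 CPM in the same order at E12.5. No wild-type pool came near either *Helq* null pool, and the log2 fold change was 2.44 (SE 0.25). *Slc2a8*, a hexose transporter, held 13.2 and 15.7 CPM against 49.3 CPM at E11.5, and 19.4 and 19.3 CPM against 93.3 CPM at E12.5. It rose by 2.07 on the log2 scale (SE 0.24). *Cap1*, which turns over actin filaments, held 16.6, 30.3, 22.5 and 28.7 CPM in the wild-type pools and 96.2 and 72.1 CPM in the *Helq* null pools. Its log2 fold change was 1.82 (SE 0.26).

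Next among the rises were *Gm10036*, *Gm10282*, *Rpl23a* and *Ost4*. *Gm10036*, a processed pseudogene on chromosome 18, held 106.1 to 156 CPM in the wild-type pools and 486 and 546 CPM in the *Helq* null pools, a log2 fold change of 2.08 (SE 0.14). The predicted gene *Gm10282* held 57.9 to 74.1 CPM against 203 and 166 CPM. *Rpl23a*, a protein of the large ribosomal subunit, held 184, 98.2, 121.1 and 94.5 CPM in the wild-type pools and 285 and 258 CPM in the *Helq* null pools. Ribosomal protein genes and processed pseudogenes have near-identical copies in the genome, so the values of *Rpl23a* and *Gm10036* are uncertain. *Ost4*, a subunit of the oligosaccharyltransferase that glycosylates proteins, rose from 73.7 to 87.9 CPM to 156 and 134.4 CPM.

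The smaller rises were of 0.93 to 1.21 on the log2 scale. *Ppp1ca*, a catalytic subunit of protein phosphatase 1, held 50.8 to 74.4 CPM in the wild-type pools and 141.6 and 96.8 CPM in the *Helq* null pools. *Riok3*, a RIO family kinase, held 69.5 to 79.8 CPM against 157 and 132.9 CPM. *Wdfy1*, an adaptor with a FYVE domain, held 22.8 to 32.5 CPM against 60.3 and 65.6 CPM, and *1500011B03Rik* 32.9 to 47.8 CPM against 72.1 and 80.1 CPM. On cells with Y-linked transcripts *Wdfy1* had an adjusted p of 0.054 and was not called.

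Among the falls were *Hspb11*, *Haus4* and *Pop1*. *Hspb11*, a component of intraflagellar transport, held 71.9 and 69.1 CPM in wild-type and 13.2 CPM in *Helq* null cells at E11.5, and 58.6, 59.7 and 29 CPM at E12.5. Its log2 fold change was -1.62 (SE 0.30). *Haus4*, a subunit of the augmin complex that branches spindle microtubules, held 181 to 225 CPM in the wild-type pools and 93.6 and 78.2 CPM in the *Helq* null pools. *Pop1*, a subunit of RNase P, held 95.1 to 110 CPM against 32.3 and 54 CPM. These 2 genes had log2 fold changes of -1.21 (SE 0.17) and -1.20 (SE 0.22).

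A further 5 falls were *Noct*, *Cbr1*, *Slc9a3r2*, *Btbd9* and *Lncenc1*. *Noct*, the nocturnin gene of circadian output, held 136.6 and 128.9 CPM against 33.2 CPM at E11.5, and 77.5 and 100 CPM against 36.2 CPM at E12.5, a log2 fold change of -1.59 (SE 0.22). *Cbr1*, a carbonyl reductase, held 153 to 168 CPM in the wild-type pools and 67.4 and 38.2 CPM in the *Helq* null pools. *Slc9a3r2*, a PDZ scaffold, held 36.9 to 63.6 CPM against 15.4 and 22.9 CPM, and *Btbd9*, a BTB domain protein, 73.6 to 88.6 CPM against 39.8 and 34.2 CPM. *Lncenc1*, a long noncoding RNA of embryonic stem cells, held 49 to 58.3 CPM against 23.9 and 11 CPM. That the *Helq* null pools were the lowest in each of these follows from how the genes were chosen.

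*Mup6*, of the major urinary protein family, held 55.3 to 126.7 CPM in the wild-type pools and 27.9 and 28.6 CPM in the *Helq* null pools, and its reads may be shared with its copies. The remaining fall, *1700019A02Rik*, held 38.9 to 72.2 CPM against 11 and 30.5 CPM, and on cells with Y-linked transcripts its adjusted p was 0.055. Under all 18 alternatives that were run, 11 of the 28 called genes that are named for the genotype difference kept their call. These were *Bmp4*, *Cap1*, *Cbr1*, *Gm10036*, *Gm10282*, *Noct*, *Slc2a8*, *Slc30a2*, *Zfp978*, *Zfp979* and *Zfp990*.

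A list of 31 partners of HELQ held RPA, Fanconi anaemia and polymerase theta genes among others. Of these 0 were called, where the share over all genes tested was 0.429%, so that a count of 0 in a list of this size says nothing particular about its members. In this list the median log2 fold change was 0.00. *Fancd2*, which the Fanconi anaemia core complex ubiquitinates at crosslinks, held 41.8 and 42.6 CPM in wild-type and 31.8 CPM in *Helq* null cells at E11.5, and 30.3, 41.4 and 33.4 CPM at E12.5. *Rpa1*, the large subunit of the complex that coats single-stranded DNA, held 224 to 255 CPM in the wild-type pools and 287 and 212 CPM in the *Helq* null pools. Neither gene had both *Helq* null pools on the same side of the wild-type pools.

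Of 32 genes of the replication stress checkpoint 0 were called, with a median of 0.01, against the same 0.429% of all genes. *Atr*, its apical kinase, held 66.1 and 59.6 CPM against 39.9 CPM at E11.5 and 46.9 and 79.4 CPM against 73.9 CPM at E12.5, and *Chek1*, the kinase below it, 69.6 to 77.6 CPM against 74.2 and 85.3 CPM. The summed level of this list did not overlap between genotypes, at 4297 to 4410 CPM in the wild-type pools and 4447 and 4582 CPM in the *Helq* null pools, but did on cells with Y-linked transcripts. No overlap was found for 3 of 24 list sums and for 16% of single genes tested, so it is nothing particular to this list. Of 24 p53 targets tested 0 were called (median -0.11), and *Cdkn1a*, the cell-cycle inhibitor induced by p53, held 127.8, 118.1, 218 and 145.1 CPM in wild-type and 107.6 and 228 CPM in *Helq* null pools. None of 25 apoptosis genes was called (median -0.09). These genes were picked as examples for their roles, and a change smaller than 2-fold in any of them would mostly have been missed.

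Lists of replication and cell-cycle genes are likewise too short for a count of 0 to differ from 0.429%. None of 43 replication licensing and fork genes passed (median 0.07, with 30 above 0), and neither did any of 33 cyclins and inhibitors (median 0.12), 43 G1/S genes (median 0.12, 32 above 0) or 53 G2/M genes (median -0.04, 20 above 0). Over all genes tested, 7452 of 15380 were above 0. *Pcna*, the sliding clamp of replication, held 426 to 474 CPM in the wild-type pools and 513 and 457 CPM in the *Helq* null pools.

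Phases were scored from the G1/S and G2/M genes on cells thinned to 50000 UMIs. At E11.5, 53.8% and 24.3% of wild-type cells and 42.6% of *Helq* null cells were scored as S phase. At E12.5 the shares were 27.7% and 23.2% in wild-type and 47% in *Helq* null cells, the latter with a 95% exact binomial interval of 34.6 to 59.7%. The *Helq* null share was thus between the wild-type shares at E11.5 and above both at E12.5. On cells with Y-linked transcripts it was above both at E11.5 too, at 56.7% (30 cells) against 53.8% and 23.2%. The mean difference was 12.6 percentage points, within the wild-type SD of 15 points, and 20.2 points on cells with Y-linked transcripts. The two-sided exact permutation of genotype within time-points gave p = 0.444, where the smallest p that its 9 assignments allow is 0.111, so this design cannot reach 0.05. The G2/M share differed by -16.3 points, with a wild-type SD of 13.3 points (exact permutation p = 0.333). The G1 share was 1.28% and 4.29% in wild-type and 13.2% in *Helq* null cells at E11.5, and 3.08%, 5.80% and 1.52% at E12.5. It differed by 3.76 points, with a wild-type SD of 2.03 points (exact permutation p = 0.556), and the direction was opposite at the 2 time-points. Intervals cover counting error only.

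The pluripotency and germ cell lists held a single called gene. *Zfp42*, which encodes REX1, a zinc-finger marker of naive pluripotency, held 268 and 234 CPM in wild-type and 414 CPM in *Helq* null cells at E11.5, and 213, 227 and 319 CPM at E12.5. Both *Helq* null pools were highest, with a log2 fold change of 0.68 (SE 0.12, adjusted p = 0.016 by edgeR's quasi-likelihood test). The other 30 pluripotency genes tested did not pass, and the list's median was -0.07. None was called among 33 germ cell genes (median -0.07), 18 genes of male germ cell fate (median -0.08), 26 genes of meiotic entry (median 0.10) or 16 genes of DNA methylation (median -0.11). The share over all genes tested was 0.429%, so counts of 0 say nothing particular about lists of this size. *Nanos2*, a switch of the male germline that comes on later, had 0 UMIs in 5 pools and 1.89 CPM in the E12.5 *Helq* null pool. Outside these lists *Hesx1* was called, and is named after its values were seen. The paper lists it as a transcription factor of transitional PGCs, a state between dividing and arrested PGCs. *Ascl2*, *Hes1*, *Tgif1* and *Sp5*, which the paper lists beside it, were not called. *Hesx1* held 0.646 and 0.969 CPM in wild-type and 2.86 CPM in *Helq* null cells at E11.5, and 21.8, 38.2 and 80.6 CPM at E12.5. Within each time-point the *Helq* null pool was higher, but that of E11.5 was below both wild-type pools of E12.5. The log2 fold change was 1.63 (SE 0.31, adjusted p = 0.035 by edgeR's quasi-likelihood test), and genotypes overlapped at E13.5.

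*Bmp4*, a ligand known for the induction of PGCs, was the called gene of 19 tested in the BMP and ID list, against 0.429% of all genes tested. It held 3.56 and 0.929 CPM in wild-type and 23.3 CPM in *Helq* null cells at E11.5, and 4.40, 3.08 and 29 CPM at E12.5. Both *Helq* null pools stood well above the wild-type pools, and the log2 fold change was 3.22 (SE 0.45, adjusted p = 0.0033 by edgeR's quasi-likelihood test). Of the other 18 BMP and ID genes tested 0 were called. The list's median was -0.07, with 8 of the 19 above 0 and 11 below 0. *Id1*, a target of BMP signalling, held 50.4 and 59.4 CPM against 113.8 CPM, and 16.8 and 9.91 CPM against 28.7 CPM, with an adjusted p of 0.070. *Id1* is named as an example and was not called.

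In glycolysis 2 of 24 genes tested were called, where the share over all genes tested was 0.429%. The list was chosen with earlier results of these data known. The called genes were *Slc2a8* above and *Ldha*, the lactate dehydrogenase A subunit. *Ldha* held 95.7 and 117.1 CPM in wild-type and 279 CPM in *Helq* null cells at E11.5, and 46.1, 48.3 and 89.3 CPM at E12.5. Within each time-point the *Helq* null pool was higher, but the E12.5 *Helq* null pool was below both wild-type pools of E11.5. The log2 fold change was 1.21 (SE 0.18, adjusted p = 0.0040 by edgeR's quasi-likelihood test). The list's median was 0.24, with 18 of 24 above 0, and its summed level was 4630 to 5024 CPM in the wild-type pools and 6395 and 5107 CPM in the *Helq* null pools. Of 20 stress response genes *Hspa8*, the constitutive heat shock cognate chaperone, was called, against 0.429% of all genes tested. It held 774 to 855 CPM against 1135 and 1085 CPM, a log2 fold change of 0.49 (SE 0.09), and the list's median was 0.31.

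Markers of other cells were summed beside these lists. The summed level of 11 erythroid genes, mainly globins, was 31.6, 77.4, 51.9 and 13.54 CPM in the wild-type pools and 129.7 and 101.03 CPM in the *Helq* null pools. These did not overlap (exact permutation p = 0.222), as was so for 3 of 24 list sums and 16% of single genes tested. *Slc4a1*, the anion exchanger of red cells, was at 0 in 4 of 6 pools and at most 0.112 CPM in the others. The 28 gonadal soma genes summed to 75.4, 105.4, 96.3 and 148 CPM in wild-type and 102.1 and 197 CPM in *Helq* null pools, with *Amh*, the Sertoli cell hormone, at 0 to 3.20 CPM and at 0 and 14.9 CPM. The median log2 fold change was 1.47 over the 7 erythroid genes tested and 0.76 over the 24 soma genes tested. Above 0 were 7 of the 7 erythroid and 22 of the 24 soma genes, against 7452 of all 15380 genes tested. In either list 0 were called, where the share over all genes tested was 0.429%. Mesonephros, endothelium, macrophage and epiblast or yolk sac lists overlapped between genotypes, also with 0 called. In cells outside the gate *Ldha* stood at 653 to 1170 CPM and *Bmp4* at 7.51 to 25.4 CPM. The part of such RNA in the values of *Ldha*, *Bmp4* and *Hspa8* was not tested. In sums of cells, more cells with a transcript and more transcripts per cell cannot be told apart, and the shares of single cells with these transcripts are not given here.

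The share of genes called differed between chromosomes, and its unevenness was not tested. Of the 66, 64 could be placed by GENCODE, on 18 chromosomes. Chromosome 14 held 10 among 575 genes tested (1.74%), of which *1700049E17Rik1* and *1700049E17Rik2*, a pair of copies at separate loci, held equal counts in every wild-type pool and are not independent, and chromosome 4 held 10 among 951 (1.05%), against 0.429% of all genes. Chromosome 18 held 4 among 348 (1.15%), all higher in *Helq* null cells and between 12 and 20.7 Mb. Of these *Gm10036* and *Gm10269* are processed pseudogenes, so the place that their reads came from is uncertain. On chromosome 5, which carries *Helq*, 6 of 952 were called (0.630%). Within 1 Mb of *Helq* 0 of 16 genes tested were called, within 5 Mb 0 of 48, and within 10 Mb a single gene (0.741% of those tested). This gene, *Naaa*, a lipid amidase, held 10.4 to 19.3 CPM in the wild-type pools and 3.64 and 0.496 CPM in the *Helq* null pools. None was called on chromosomes 6, 10 and 12, and *Gm47283* was the called gene of 10 tested on the Y chromosome (10%). It was higher in *Helq* null cells, at 218.9 and 161.2 CPM against 78.3 to 137.9 CPM in the wild-type pools. It is not among the 4 Y-linked genes summed above, and its highest value was that of the E11.5 *Helq* null pool, where 39 of 71 cells were low in those. GENCODE places it at chrY:90784738-90816464, and whether its reads came from the Y chromosome was not tested. On cells with Y-linked transcripts the 78 called genes included 11 on chromosome 14, 12 on chromosome 4, 5 on chromosome 18 and 6 on chromosome 5.

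**Figure D3:**
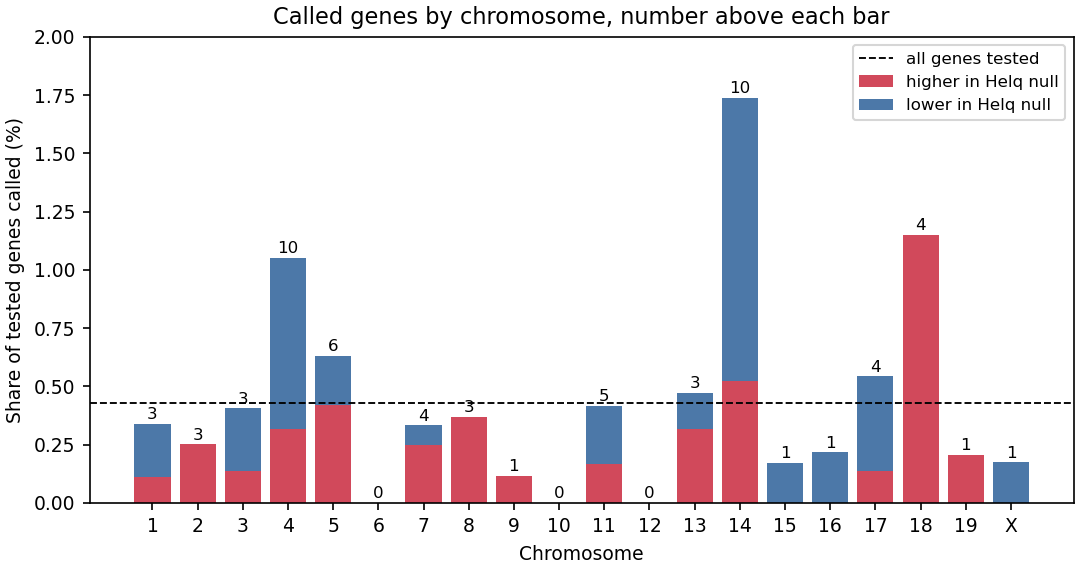
Share of tested genes that were called (y axis, percent) on each autosome and the X chromosome (x axis), split into genes higher (red) and lower (blue) in *Helq* null cells, with the number called above each bar and a dashed line at the share over all genes tested, 0.429%. Chromosomes 14, 18 and 4 stand at 1.74, 1.15 and 1.05%.

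Several called genes were all but absent from 1 genotype. They were named after their values were seen. *Pnp2*, a purine nucleoside phosphorylase of chromosome 14, held 23.8, 20.9, 22 and 9.52 CPM in the wild-type pools and 0.112 and 0.0496 CPM in the *Helq* null pools. *Gc*, the vitamin D-binding protein, held 11.9 to 22.6 CPM against 1.34 and 0 CPM. The other way, *Mmrn2*, a multimerin, held 2.11 to 2.42 CPM in the wild-type pools and 23.9 and 23.6 CPM in the *Helq* null pools. *Gm48168*, a long noncoding RNA, was at 0 in all 4 wild-type pools and at 62.3 and 0.993 CPM in the *Helq* null pools, which themselves lie far apart. A pair of neighbours on chromosome 17, *Btbd9* above and *Glo1*, a glyoxalase, both fell, *Glo1* from 410 to 460 CPM to 295 and 247 CPM.

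The genotype difference was not the same at both time-points for 29 genes (0.189% of 15380), by the interaction of genotype and time-point. At an unadjusted p under 0.05 there were 1309. In 25 of the 29 the *Helq* null level was relatively lower at E12.5, and 0 were among the 66. Of the 29, 11 lay on the X chromosome, which held 573 of the 15380 genes tested. Of these 11, 9 were *Rhox* genes, among them copies of Rhox4 that share reads and are not independent. Genes below were named after their values were seen. The term for E12.5 alone called 194 genes (1.26%), 152 of them lower (0.988%) and 42 higher (0.273%), and that for E11.5 alone 59 (0.384%), with 26 in both. On cells with Y-linked transcripts the E12.5 term called 199 and the E11.5 term 80. Each time-point rests on 1 *Helq* null pool, that of E12.5 stood apart from the other pools, and in these terms and the interaction the spread comes from the wild-type pools alone, with the *Helq* null pool assumed to vary like them.

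*Rhox* genes are X-linked homeobox genes expressed in germ cells and gonads. *Rhox9* held 596 and 589 CPM in wild-type and 726 CPM in *Helq* null cells at E11.5, and 537, 449 and 171 CPM at E12.5. The *Helq* null pool was thus highest at E11.5 and lowest at E12.5, and the interaction was -1.87 on the log2 scale (SE 0.23). *Rhox6* kept the same order, with 528, 567 and 644 CPM at E11.5 and 422, 360 and 146.2 CPM at E12.5. All 26 *Rhox* genes tested were below 0 in the E12.5 term, but copies of Rhox2 and Rhox4 share reads and are not independent. *Hmgn5*, an X-linked nucleosome-binding protein, went from 574, 518 and 582 CPM to 457, 385 and 145.9 CPM. X-linked genes as a whole, 187 with a mean log2 CPM from 5 upwards, had a median of -0.12 in the E12.5 term, against -0.04 for 5519 autosomal genes.

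Other genes of the same pattern lay on autosomes. *Slc38a4*, an imprinted amino acid transporter, held 119.8, 121.5 and 150 CPM at E11.5 and 88.3, 74 and 22.7 CPM at E12.5, the last value of each set being the *Helq* null pool. *Lck*, a kinase of the Src family, held 39.2, 39.8 and 69.5 CPM and then 21.3, 18.8 and 1.94 CPM. *Gm42418*, a transcript that overlaps ribosomal RNA, ran the other way, with 1745, 1613 and 1287 CPM at E11.5 and 896, 991 and 2151 CPM at E12.5. At E13.5 the levels of *Rhox9* were 231 and 38.5 CPM in *Helq* null and 157 and 397 CPM in wild-type pools, which overlapped. On cells with Y-linked transcripts 32 genes were called, 25 of them among the 29.

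**Figure D4:**
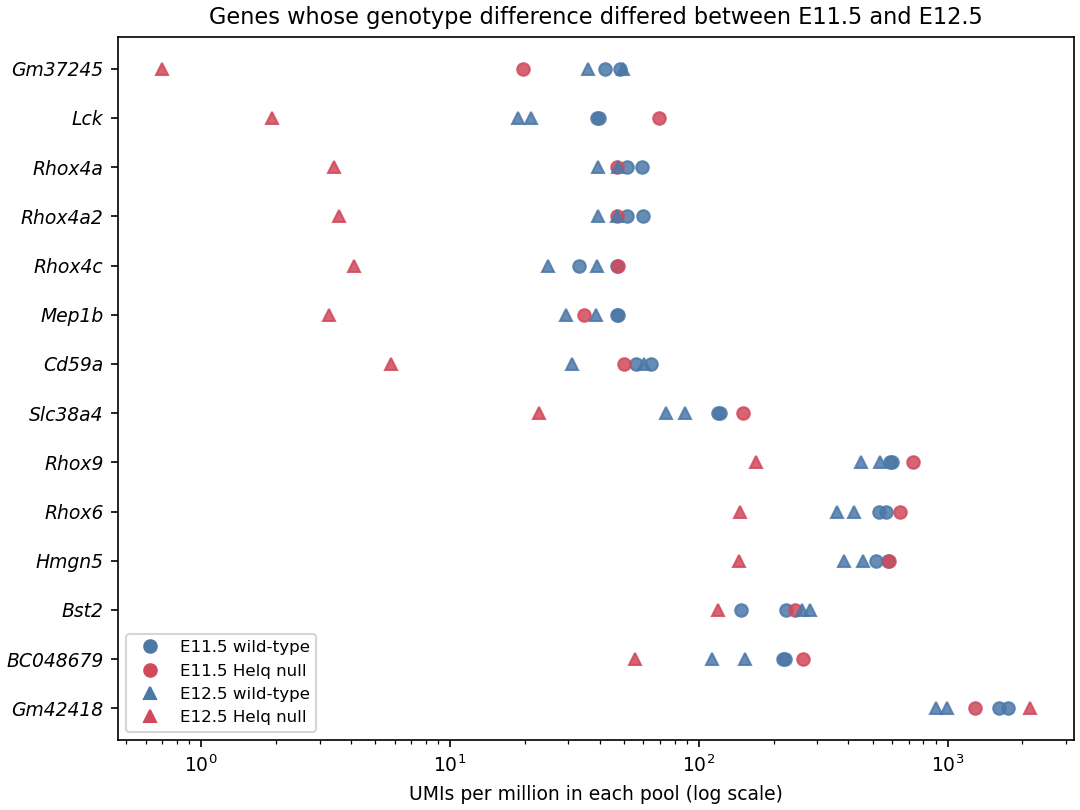
CPM (x axis, log scale) in each of the 6 pools for the 14 genes with an interaction past the FDR of 0.05 and a mean log2 CPM from 5 upwards (y axis). Circles are E11.5 and triangles E12.5, and the E12.5 *Helq* null pool (red triangle) is the lowest of its row in all genes but *Gm42418*, where it is the highest.

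The called genes were followed at E13.5 and outside the BVSC gate, in cells that the fit had not used. At E13.5, with 2 *Helq* null and 2 wild-type pools of their own, of which the R1 pools of both genotypes shared a library, 60 of 65 genes measured there had the same direction, 92.3%, against 51.8% of all genes tested in both. Without the shared library these were 57 of 65, against 51.2%, and of the 78 genes called on cells with Y-linked transcripts 69 had the same direction. In 66.2% the pools of E13.5 also did not overlap and went the same way, against 17.4% of all genes. The fit of E13.5 called 4 of 15364 genes (0.026%), and 3 of these were *Zfp990*, *Zfp978* and *Gm10036*. *Zfp990* held 85.2 and 67.7 CPM in *Helq* null and 3.27 and 2.15 CPM in wild-type pools, and *Zfp978* 5.91 and 6.41 CPM against 62.8 and 69 CPM. *Slc2a8* was reversed, at 12.7 and 8.95 CPM in *Helq* null and 26.2 and 20.4 CPM in wild-type pools. *Bmp4* held 42.2 and 49.3 CPM against 26.4 and 10.4 CPM, with an adjusted p of 0.999 in the edgeR fit of E13.5.

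**Figure D5:**
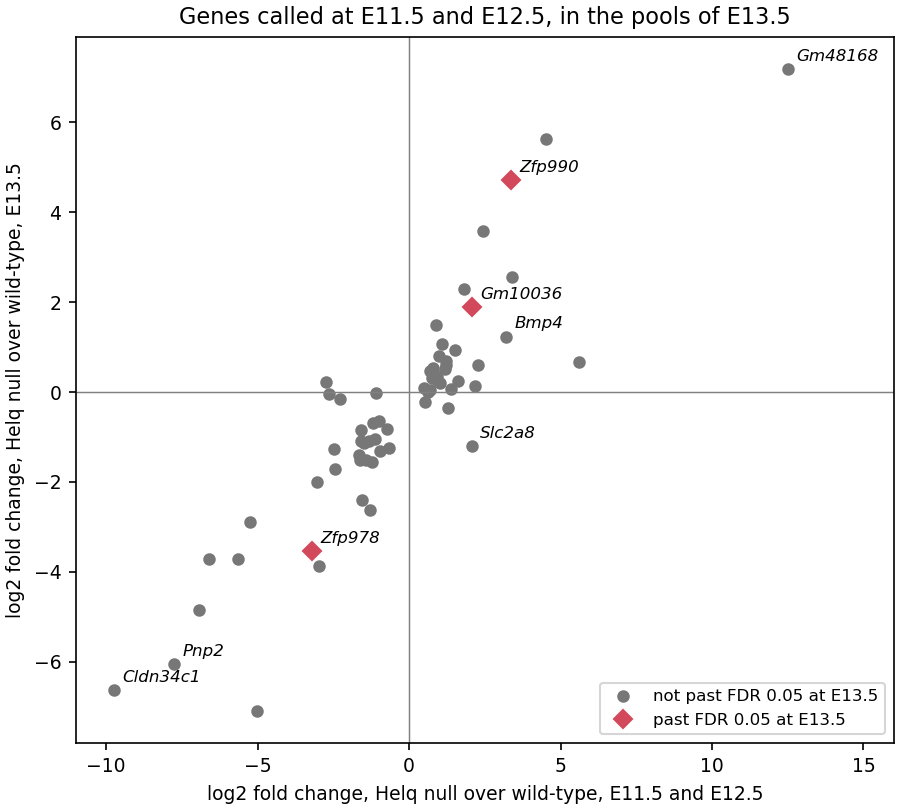
Log2 fold change of *Helq* null over wild-type at E13.5 (y axis) against that at E11.5 and E12.5 (x axis) for the 65 called genes measured at E13.5, with red diamonds for the 3 called there as well. The points of 60 genes share the sign on both axes, and *Slc2a8* is among the 5 that do not. Fitted values of genes near 0 in a genotype, such as *Gm48168*, are not sizes of an effect.

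The shared library of E13.5, whose cells are part of the R1 pools, held 32 *Helq* null and 31 wild-type germ cells. The *Helq* null cells all came from gonad part D and the wild-type cells all from part P, as the cell names code them, so genotype and gonad part cannot be told apart there. In it 51 of the 66 genes had the same direction, 77.3%, against 47.5% of all genes tested, with no replicate. By direction these were 30 of 33 lower genes and 21 of 33 higher genes. In the cells outside the BVSC gate, 23 or 24 from each of 5 of the 6 libraries, 36 of 65 called genes with a UMI did not overlap and went the same way, 55.4%, against 10.4% of all genes. These cells come from the same libraries as the fitted pools, so genotype and library cannot be told apart in them either, and this count is not independent of the call. *Gm10036* held 354 and 536 CPM in *Helq* null and 50.9 to 89.7 CPM in wild-type cells outside the gate, and *Zfp990* 23.4 and 6.70 CPM against 0.289 to 0.504 CPM. *Slc2a8* did not share this, at 11 and 13.1 CPM in *Helq* null and 15 to 24.5 CPM in wild-type cells outside the gate.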

How the data were processed

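Single-cell libraries of mouse male gonads were made by a modified STRT-seq, and the authors aligned reads to mm10 with STAR, assigned uniquely aligned reads to genes with featureCounts and removed duplicates with UMI-tools. A pair of gene copies at separate loci nevertheless held equal counts, so some reads may stand at more than 1 gene. The authors deposited UMI counts per gene and cell without normalization, and for the cells read here each cell's sum equalled the deposited number of transcripts. The sample labels give no genotype, so time-point, genotype, gate and replicate come from the deposited cell names. 12088 cell columns were not used here. Gene coordinates are those of GENCODE M21.

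UMI counts were summed per pool and fitted with edgeR 4.0.16 (R 4.3.3), quasi-likelihood test, TMM, filterByExpr, time-point and genotype, FDR 0.05. The interaction used the same genes. The edgeR fit was tested on simulated data, in which 200 genes had been changed. CPM is UMIs per 1000000 of the pool. SE was derived from the test, as the size of the log2 fold change divided by the square root of its F statistic. Phases were scored with Seurat 5.3.0. Cells were picked or sorted singly, and no doublet caller was run.

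Named genes are *Helq*, called members of gene lists, and the 12 largest rises and 12 largest falls past the FDR, at a mean log2 CPM of 5 or more and with genotypes that do not overlap. Genes named otherwise are said to be so. Members and lists were chosen with earlier results of these data known. Alternatives were other normalization, tools, filters, thresholds, thinning, single time-points, cells with Y-linked transcripts and leaving out each pool. Fold changes and p-values of the authors were not used.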

Additional observations from a re-analysis of the deposited data

Results flagged for a closer look

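The genotype difference differed between E11.5 and E12.5 for 29 genes by a test of the difference itself, the interaction term of edgeR's quasi-likelihood fit at an FDR of 0.05. For the 14 of them at a mean log2 CPM of 5 or more, the difference at E12.5 minus that at E11.5 on the log2 scale was -4.78 for *Gm37245*, -4.23 for *Lck*, -3.46 for *Rhox4a*, -3.39 for *Rhox4a2*, -3.24 for *Rhox4c*, -2.97 for *Mep1b*, -2.75 for *Cd59a* and -2.20 for *Slc38a4*. It was -1.87 for *Rhox9*, -1.70 for *Rhox6*, -1.67 for *Hmgn5*, -1.61 for *Bst2*, -1.56 for BC048679 and 1.53 for *Gm42418*. Groups of 4 or more pools did not occur within a time-point, so no pool was tested against its own group.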

How the results depend on the processing

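The 66 called genes became 252 with DESeq2, 289 without a filter on low counts, 42 with cells thinned to 10000 UMIs, 22 without a time-point term, 194 at E12.5 alone and 32 at an FDR of 0.01. Leaving out a pool gave 50 to 194, the highest without the E11.5 *Helq* null pool. The interaction called 0.189% of genes tested (4 higher and 25 lower at E12.5), 0.748% with DESeq2 (33 higher, 82 lower), 0.442% with RLE normalization and 0.0585% at an FDR of 0.01. The 1 gene within 10 Mb of *Helq* became 0 with library sizes only, with a mean CPM of at least 10, with cells of the germ cell marker rule, with thinned cells and without a time-point term, 4 with DESeq2 and without a filter on low counts, 3 at E12.5 alone and 2 on cells with Y-linked transcripts, and 0 to 4 leaving out a pool. Of 24 list sums 3 did not overlap, and 3 to 10 leaving out a pool, the highest without the E12.5 *Helq* null pool. The difference in S phase ranged from 3.58 to 21.5 points leaving out a pool, the *Helq* fold change from 0.13 to 0.71, and the genes with the same direction at E13.5 from 50 to 61. The causes were not tested. Among 28 named genes 396 of 504 repeats kept the call and 0 turned the direction. No paired analysis was possible because the *Helq* null pools have 1 replicate number only, so the genotypes share fewer than 2. With cells thinned to 10000 UMIs 8243 genes could be tested.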
